A study of Mus musculus with 13 samples.

Results

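The miR-29 family was measured in mouse plasma by small RNA sequencing as 7 mature miRNAs, namely mmu-miR-29a-3p, mmu-miR-29a-5p, mmu-miR-29b-3p, mmu-miR-29b-1-5p, mmu-miR-29b-2-5p, mmu-miR-29c-3p and mmu-miR-29c-5p. They were taken by name from a table of raw read counts for 1907 miRNAs, of which 1203 had at least 1 read and 368 passed a filter on low counts. All 7 members had reads, and 4 of them passed that filter (miR-29a-3p, miR-29b-3p, miR-29c-3p and miR-29c-5p).

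MicroRNAs are short RNAs that lower the output of messenger RNAs whose untranslated regions pair with the seed, the stretch at bases 2 to 8 of the miRNA. The miR-29 family is best known for repressing messenger RNAs of the extracellular matrix, among them those of collagens, elastin and fibrillin, and its level in fibrotic tissue is commonly low, since TGF-β lowers its transcription. In dystrophic muscle, where fibres are lost and replaced by scar tissue, it has been studied as an anti-fibrotic miRNA and as a target of histone deacetylases.

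Plasma came from 13 mice, 1 library each. Naive wt mice (C57BL/10J, n = 3) were untreated. Naive mdx mice (C57BL10ScSn-Dmdmdx/J, n = 3) carry a mutation in the dystrophin gene in every cell of the body, serve as a model of Duchenne muscular dystrophy, and were also untreated. Vehicle mice (n = 4) were mdx mice gavaged with 0.5% methylcellulose on 5 days a week for 15 weeks. Givinostat mice (n = 3) were mdx mice gavaged on the same schedule with the histone deacetylase inhibitor Givinostat (37.5 mg/kg) in 0.5% methylcellulose. The mice were males bought at 7 to 8 weeks of age, all had undergone muscle function tests, and all 13 samples were drawn at the last time point (T16). The strain field names C57BL/10J for every mouse, whereas the titles and treatment notes give the mdx line, which was followed here. The comparison of naive mdx with naive wt asks what the lack of dystrophin does to circulating miRNAs, and that of Givinostat with vehicle asks what the inhibitor does. The wt and mdx mice also differ in substrain by name, which cannot be told apart from the lack of dystrophin here. A comparison of all 10 mdx mice with naive wt and 1 of vehicle with naive mdx were added. In the former, each mdx group had equal weight in edgeR, whereas each mouse had equal weight in the permutation tests of ratios and summed levels.

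The mature sequences are shown because the family is defined by its seed and because its 3p strands differ by few bases. They are RefSeq entries on GRCm38.p6, which held all 7 members, with the seed in capitals. The 3p strands come first.
mmu-miR-29a-3p: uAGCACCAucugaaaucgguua
mmu-miR-29b-3p: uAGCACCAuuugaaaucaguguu
mmu-miR-29c-3p: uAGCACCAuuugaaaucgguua
mmu-miR-29a-5p: aCUGAUUUcuuuugguguucag
mmu-miR-29b-1-5p: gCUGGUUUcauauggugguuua
mmu-miR-29b-2-5p: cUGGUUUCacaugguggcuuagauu
mmu-miR-29c-5p: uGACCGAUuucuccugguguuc

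The 3 strands from the 3p arm shared the seed AGCACCA, and no other of the 1623 miRNAs of the count table with a RefSeq sequence carried it. Counted from 1 at the 5′ end, miR-29a-3p and miR-29c-3p differed by 1 base, C10U, with 21 of 22 bases identical. miR-29c-3p and miR-29b-3p differed by G18A, U21G and A22U over 22 compared bases, and miR-29b-3p had 1 further base at its 3′ end. A short read that ends before base 18 could therefore belong to either miR-29b-3p or miR-29c-3p, and how such reads were assigned is not given in the sources used here. The 5p strands had 4 different seeds, none of them that of the 3p strands. That of miR-29b-2-5p (UGGUUUC) was also found in miR-6338, which had no read in any library.

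The family is encoded by 4 hairpins in 2 clusters. On chromosome 6, minus strand, Mir29a (chr6:31062660-31062747) and Mir29b-1 (chr6:31063023-31063093) were 275 bases apart. On chromosome 1, plus strand, Mir29b-2 (chr1:195037040-195037120) and Mir29c (chr1:195037547-195037634) were 426 bases apart. In the GENCODE annotation of GRCm38, Mir29b-2 and Mir29c lay in an exon of the non-coding transcript A330023F24Rik on the same strand and opposite a UTR exon of the protein-coding gene Cd46. Mir29b-1 overlapped the lincRNA Gm27019 by 2 bases, and Mir29a overlapped no other gene. miR-29b-3p is the same sequence from Mir29b-1 and Mir29b-2, so its count is the sum of both clusters, whereas the 5p strands of these hairpins are distinct.

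Library totals ranged from 1167161 to 2899315 counts. The libraries differed in makeup by genotype: the liver miRNA miR-122-5p took 37.6% to 64.6% of the counts of naive wt libraries and 1.37% to 16.1% of those of mdx libraries, while a list of 8 muscle miRNAs took 0.707% to 2.09% and 28.3% to 46.8%, respectively. Levels are therefore given as CPM, the count of a miRNA brought to a fixed library size, after scaling by TMM factors, which set libraries to a common level over most miRNAs, and the part of these shifts in the results below was not tested beyond the other scalings described. In plasma, fewer cells that release a miRNA and less RNA released per cell cannot be told apart.

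In naive mdx plasma all 4 tested members were higher than in naive wt plasma, by 1.97-fold to 3.60-fold. Of all 368 miRNAs tested, 26.9% were called higher in this comparison at an adjusted p under 0.05 (edgeR). The 3p strands of miR-29a and miR-29c and the 5p strand of miR-29c also had no value in common between the groups, which held for 29.9% of all miRNAs tested in the same direction. miR-29b-3p passed the test but its groups overlapped.

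miR-29a-3p (MIMAT0000535), the most abundant member, stood at 3446, 3614 and 2663 CPM in naive wt mice 86, 89 and 95. In naive mdx mice 36, 37 and 39 it reached 5882, 11195 and 8881 CPM. Every naive mdx mouse was above every naive wt mouse, and mouse 36 was nearer to the wt mice than the others. The log2 fold change was 1.42 (SE 0.25, 95% CI 0.88 to 1.95, adjusted p = 0.000280, edgeR), or 2.67-fold. On library totals alone, without TMM factors, it was 2601, 4432 and 1954 CPM in naive wt and 8051, 10539 and 10513 CPM in naive mdx mice in the same order, and the groups stayed apart.

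miR-29c-3p (MIMAT0000536), which differs from miR-29a-3p by a single base, was 54.4, 62.6 and 57.4 CPM in naive wt mice 86, 89 and 95. It was 125, 230 and 232 CPM in naive mdx mice 36, 37 and 39. The groups did not overlap, and mouse 36 was again the lowest of the naive mdx mice. The difference was 1.75 on the log2 scale (SE 0.29, adjusted p = 0.000159, edgeR), or 3.36-fold with a 95% CI of 2.19 to 5.15. The underlying raw counts were 86 to 122 in naive wt and 200 to 427 in naive mdx libraries.

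miR-29b-3p (MIMAT0000127), the sum of both loci, was 38.0, 86.3 and 58.8 CPM in naive wt mice 86, 89 and 95. It was 77, 158 and 127 CPM in naive mdx mice 36, 37 and 39. Here naive wt mouse 89 lay above naive mdx mouse 36, so the groups overlapped. The log2 difference was 0.98 (SE 0.36, 95% CI 0.22 to 1.73) with an adjusted p of 0.0343 in edgeR. The call was lost when naive wt mouse 86 (log2 0.71, adjusted p = 0.149), naive wt mouse 95 (0.97, 0.0965), naive mdx mouse 37 (0.75, 0.151) or naive mdx mouse 39 (0.92, 0.0908) was left out of the edgeR fit. It was also lost with upper-quartile factors (0.76, adjusted p = 0.106), with totals that leave out miR-122-5p and the muscle list (0.83, 0.0693) and in an edgeR fit of only these groups (0.97, 0.101).

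miR-29c-5p (MIMAT0004632), the opposite strand of the Mir29c hairpin, was scarce in naive wt plasma, with raw counts of 10, 14 and 13. Scaled levels were 6.33, 7.89 and 6.11 CPM in naive wt mice 86, 89 and 95 and 21.3, 33.2 and 19.5 CPM in naive mdx mice 36, 37 and 39. All naive mdx mice were above all naive wt mice. It had the largest log2 difference of the 4 tested members, 1.85 (SE 0.34, adjusted p = 0.000393, edgeR), although its 95% CI of 1.12 to 2.57 overlapped those of the other members.

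**Figure D1:**
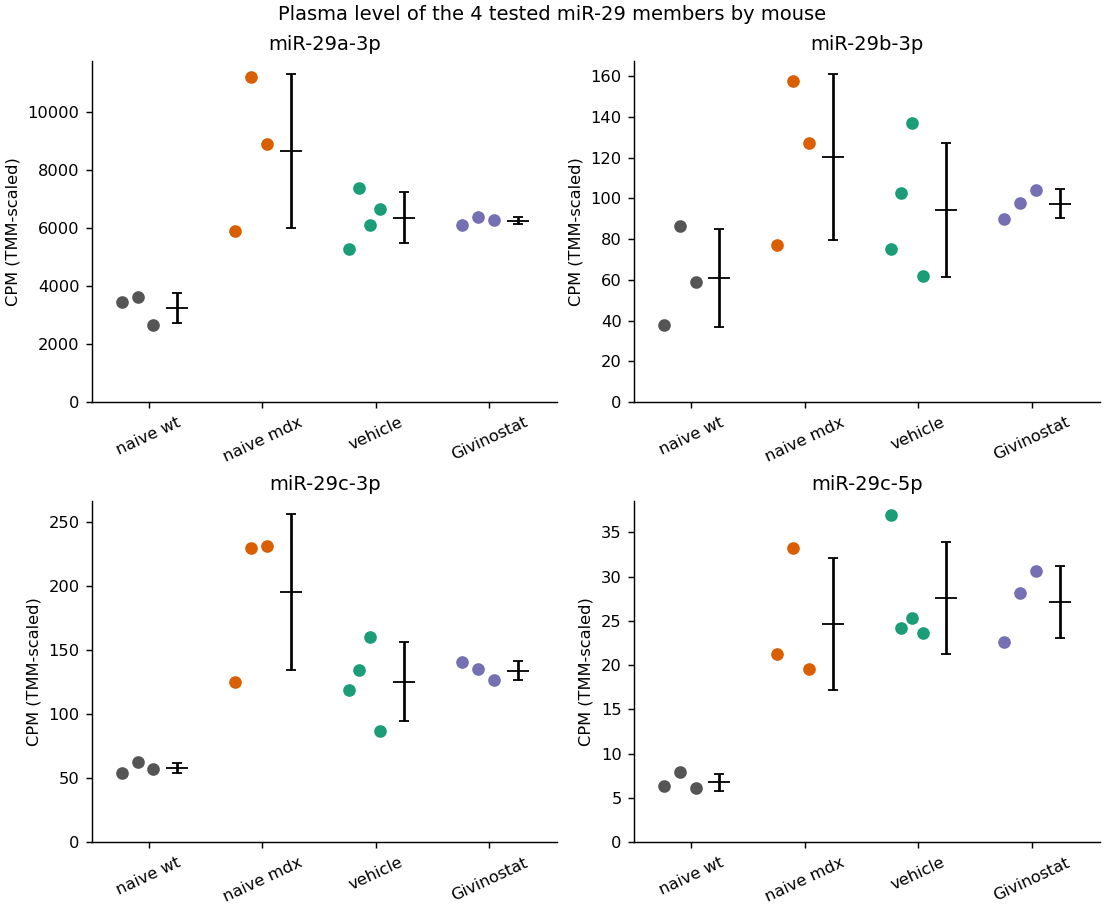
Level of the 4 tested members in each mouse, in TMM-scaled CPM on linear axes from 0, with points for mice and bars for the mean ± SD of each group. Naive wt mice are lowest for miR-29a-3p, miR-29c-3p and miR-29c-5p, and overlap the mdx mice only for miR-29b-3p.

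With vehicle and Givinostat mice included, the same pattern held over 10 mdx mice. All 4 tested members were called higher in the mdx groups than in naive wt (28.8% of all miRNAs tested were), and miR-29a-3p, miR-29c-3p and miR-29c-5p were without overlap (21.2% of all miRNAs tested were higher without overlap). This comparison shares the naive wt and naive mdx libraries with the previous one and is not independent of it.

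Across the 10 mdx mice miR-29a-3p ranged from 5290 to 11195 CPM (median 6322), against a highest naive wt value of 3614 CPM. miR-29c-3p ranged from 87.1 to 232 CPM (median 135), against at most 62.6 CPM in naive wt. miR-29c-5p ranged from 19.5 to 37.0 CPM (median 24.8), against at most 7.89 CPM. miR-29b-3p, from 62.1 to 158 CPM (median 100.4), overlapped naive wt, where mouse 89 reached 86.3 CPM.

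In edgeR the log2 differences of all mdx groups from naive wt were 1.11 (SE 0.21, adjusted p = 0.000410) for miR-29a-3p and 1.35 (SE 0.25, adjusted p = 0.000305) for miR-29c-3p. They were 1.95 (SE 0.30, adjusted p = 6.69e-05) for miR-29c-5p and 0.76 (SE 0.30, adjusted p = 0.0424) for miR-29b-3p. For miR-29a-3p this was 2.16-fold, for miR-29c-5p 3.86-fold. The call of miR-29b-3p was lost without any 1 of naive wt mice 86 and 95, naive mdx mice 37 and 39, vehicle mouse 42, or Givinostat mice 31, 34 and 35, with adjusted p from 0.0542 to 0.221 in edgeR. It was lost as well with upper-quartile factors (adjusted p = 0.112), library totals (0.0570) and totals without miR-122-5p and the muscle list (0.0785). The calls of the other 3 tested members held with each library left out in turn.

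Givinostat did not separate from vehicle for any tested member. In vehicle mice 40, 41, 42 and 43, miR-29a-3p was 5290, 7380, 6113 and 6640 CPM, and in Givinostat mice 31, 34 and 35 it was 6120, 6375 and 6270 CPM. The Givinostat values lay inside the range of the vehicle values. The log2 difference was -0.02 (95% CI -0.51 to 0.47), which allows a change of up to 1.38-fold upward or down to 0.701-fold. The same holds for the other members below, where the intervals are wider.

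miR-29c-3p was 119, 135, 161 and 87.1 CPM in vehicle and 141, 135 and 127 CPM in Givinostat mice, in the same order. miR-29b-3p was 75.4, 103, 137 and 62.1 CPM in vehicle and 90.0, 97.8 and 104 CPM in Givinostat mice. miR-29c-5p was 37.0, 24.3, 25.4 and 23.7 CPM in vehicle and 22.7, 28.2 and 30.6 CPM in Givinostat mice. The groups overlapped for each of the 3, and the vehicle mice spread more widely than the Givinostat mice in each, a difference that was not tested. The log2 differences were 0.10 (95% CI -0.46 to 0.66), 0.05 (-0.65 to 0.75) and -0.03 (-0.65 to 0.59), respectively. All 4 adjusted p-values were 0.990 in edgeR. Of the 368 miRNAs tested, 0.272% were called in either direction, which is 1 miRNA and no member of the family. These intervals do not show that Givinostat left the family unaltered.

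Vehicle and naive mdx mice, which differ by the gavage, gave no call for any miRNA (0% of 368 in either direction in edgeR, 0 also in DESeq2, while before adjustment 10 miRNAs were higher and 7 lower at p under 0.05). The 3p strands were lower on average in vehicle mice, with log2 differences of -0.45 for miR-29a-3p (95% CI -0.93 to 0.04), -0.35 for miR-29b-3p (-1.05 to 0.34) and -0.64 for miR-29c-3p (-1.20 to -0.09). The unadjusted p of miR-29c-3p was 0.0259 and its adjusted p 0.801 in edgeR, so it did not pass. miR-29c-5p had a difference of 0.17 (-0.45 to 0.79, adjusted p = 0.866). The groups overlapped for each of the 4, and naive mdx mouse 36 stood within the vehicle range for all the 3p strands.

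**Figure D2:**
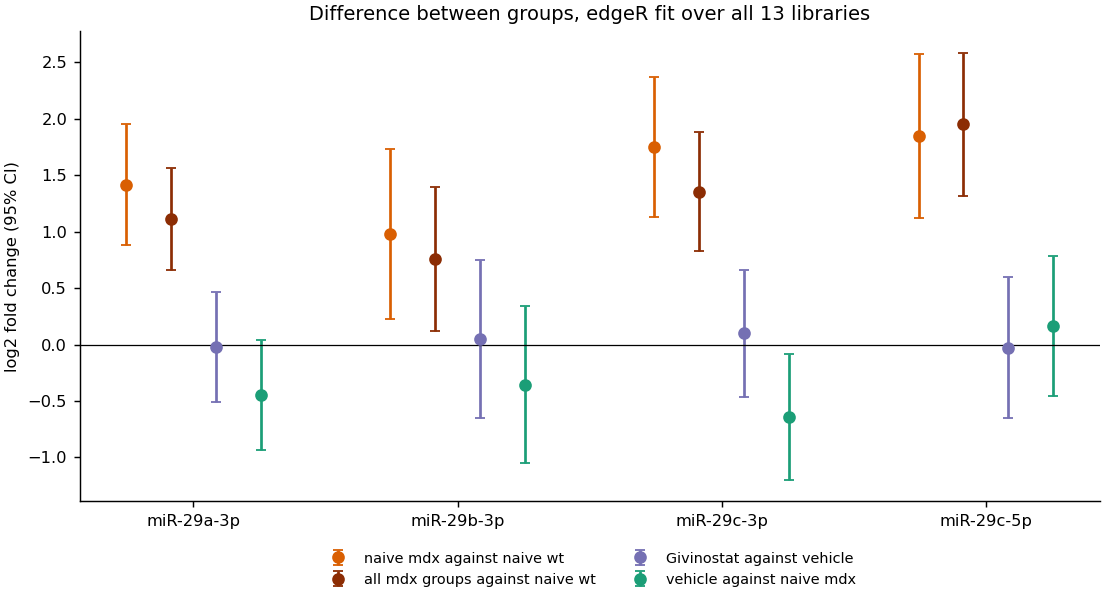
Log2 fold change of the 4 tested members in 4 comparisons, as points with 95% confidence intervals from edgeR over 13 libraries; comparisons share libraries. Intervals for both comparisons with naive wt lie above 0, while those for Givinostat against vehicle include 0, and that of miR-29c-3p for vehicle against naive mdx lies just below 0 before adjustment.

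Ordered by mean level, miR-29a-3p was lowest in naive wt (3241 ± 507 CPM, SD, n = 3), followed by Givinostat (6255 ± 128, n = 3), vehicle (6356 ± 880, n = 4) and naive mdx (8653 ± 2664, n = 3). Givinostat and vehicle, and vehicle and naive mdx, did not differ beyond their spread. miR-29c-3p had naive wt lowest (58.1 ± 4.12 CPM), then vehicle (125 ± 30.8), Givinostat (134 ± 7.15) and naive mdx (196 ± 61.0). miR-29b-3p was ordered as naive wt (61.0 ± 24.2 CPM), vehicle (94.3 ± 33.1), Givinostat (97.4 ± 7.11) and naive mdx (121 ± 40.7), with overlap at every step. miR-29c-5p alone had naive mdx (24.7 ± 7.44 CPM) below Givinostat (27.1 ± 4.07) and vehicle (27.6 ± 6.31), all above naive wt (6.78 ± 0.971), and these 3 mdx groups overlapped.

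Taken as a sum, the family was mostly miR-29a-3p, which made up 94.9% to 97.4% of the reads of the 7 members in each library. By mean level miR-29a-3p ranked 28 of the 368 tested miRNAs, miR-29c-3p 134, miR-29b-3p 148 and miR-29c-5p 242. Within single libraries miR-29a-3p ranked 39 to 42 in naive wt, 20 to 27 in naive mdx, 26 to 30 in vehicle and 28 to 29 in Givinostat mice. Read counts of different miRNAs also depend on how well each was ligated, which these data do not measure. The family held 0.204% to 0.463% of all counts in naive wt, 0.836% to 1.10% in naive mdx, 0.550% to 0.811% in vehicle and 0.572% to 0.744% in Givinostat libraries.

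The summed level was 3368 ± 517 CPM in naive wt, 8999 ± 2767 in naive mdx, 6609 ± 882 in vehicle and 6517 ± 132 in Givinostat mice (SD, n = 3, 3, 4 and 3). Over all 10 mdx mice it was 7298 ± 1828 CPM, without overlap with naive wt. A two-sided exact permutation test over mice gave p = 0.006993, the smallest this design allows, and 0.0280 after adjustment over 4 comparisons. With any 1 naive wt mouse left out, the smallest adjusted p that the exact test allows rose to 0.121, and that value was found each time. Naive mdx alone against naive wt gave p = 0.1 in the exact permutation test, the smallest possible for 3 against 3 mice. For Givinostat against vehicle the exact permutation p was 0.743, with a difference of -92.0 CPM.

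Ratios of 2 strands within a library need no scaling between libraries. miR-29b-3p stood at 69.9%, 138% and 102% of the miR-29c-3p count in naive wt mice 86, 89 and 95, and at 61.6%, 68.7% and 54.9% in naive mdx mice 36, 37 and 39. Vehicle mice had 63.3% to 85.2% and Givinostat mice 64.1% to 82.4%. Naive mdx mice were thus below every naive wt mouse, whereas naive wt mouse 86 lay inside the range of the 10 mdx mice. The mean log2 ratio was 0.70 lower in naive mdx than in naive wt (-0.70 ± 0.16 against -0.01 ± 0.49, SD, n = 3 each, exact permutation p = 0.1). Over all mdx mice the difference was -0.52 (exact permutation p = 0.0420), and after adjustment over the 12 ratio tests it did not pass (adjusted p = 0.457).

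The share of miR-29c-3p relative to miR-29a-3p was 1.59% to 2.16% in naive wt, 2.05% to 2.61% in naive mdx, 1.32% to 2.64% in vehicle and 2.03% to 2.30% in Givinostat libraries. The log2 difference of all mdx mice from naive wt was 0.21 (exact permutation p = 0.287, adjusted p = 0.600). For miR-29b-3p relative to miR-29a-3p, naive wt spanned 1.11% to 2.39% and the 10 mdx mice 0.940% to 2.25%, and the difference was -0.31 (exact permutation p = 0.203, adjusted p = 0.600). Neither ratio separated any of the groups compared.

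The 5p strand of miR-29c was 12.1%, 13% and 11% of its 3p strand in naive wt mice 86, 89 and 95. It was 17.2%, 14.6% and 8.54% in naive mdx mice 36, 37 and 39, higher in 2 and lower in 1 than in every naive wt mouse. Vehicle mice 40, 41, 42 and 43 had 31.2%, 18.3%, 16% and 27.5%, and Givinostat mice 31, 34 and 35 had 16.3%, 21% and 24.4%. All 7 gavaged mice were above all naive wt mice, a grouping that is not among the comparisons made and was not tested. The log2 difference of all mdx mice from naive wt was 0.61 (exact permutation p = 0.0909, adjusted p = 0.229 over 4 tests), and that of vehicle from naive mdx was 0.79 (exact permutation p = 0.114, the smallest possible being 0.057143). Without naive mdx mouse 39 the difference of the mdx mice from naive wt was 0.74, and the adjusted p of the exact test was 0.0364. With all mice the ratio was not called, and passing the threshold depended on leaving out that 1 mouse.

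**Figure D3:**
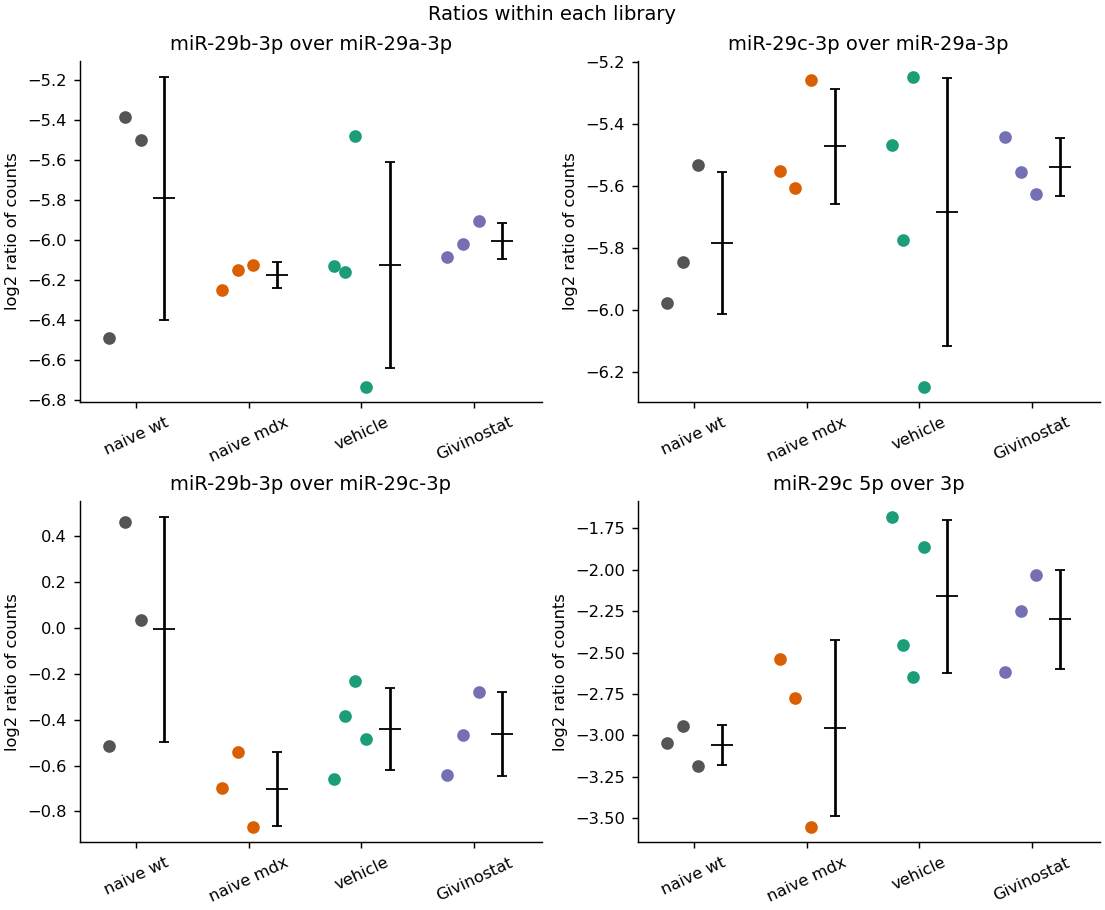
Log2 ratios of read counts within each library (pseudocount 0.5), with points for mice and bars for the mean ± SD of each group. The ratio of miR-29b-3p to miR-29c-3p is lower in the 3 naive mdx mice than in the 3 naive wt mice, and the miR-29c 5p to 3p ratio spreads from -3.55 to -1.68 over the mdx mice.

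The 3 remaining members are 5p strands that stayed under 10 counts in every library and were not tested. miR-29a-5p (MIMAT0004631) had 1, 2 and 1 counts in naive wt mice 86, 89 and 95 and 1, 6 and 7 in naive mdx mice 36, 37 and 39. It had 1, 3, 3 and 0 counts in vehicle mice 40, 41, 42 and 43 and 1, 1 and 0 in Givinostat mice 31, 34 and 35. Pooled over libraries it was 0.621 CPM of all counts in naive wt (exact Poisson 95% interval 0.169 to 1.59) and 3.31 CPM in naive mdx (1.81 to 5.56). These intervals cover counting error only and not the spread between mice, and the 2 naive mdx mice with 6 and 7 counts carry the higher value.

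miR-29b-1-5p (MIMAT0004523) had 0, 1 and 0 counts in naive wt, 1, 0 and 4 in naive mdx, 4, 2, 1 and 4 in vehicle and 2, 3 and 0 in Givinostat mice, in the same order. miR-29b-2-5p (MIMAT0017063) had 0, 2 and 0 counts in naive wt, 2, 3 and 2 in naive mdx, 0, 7, 1 and 8 in vehicle and 5, 0 and 3 in Givinostat mice. The groups overlapped for both. Libraries without a read of either strand could still hold it at levels of up to 1.03 to 2.20 CPM, the value of 3 counts in each such library. The pooled values that follow are CPM of all counts, without TMM factors. Over the 10 mdx mice, miR-29b-1-5p was 1.49 CPM (exact Poisson 95% interval 0.925 to 2.28) against 0.155 CPM (0.00393 to 0.865) in naive wt. miR-29b-2-5p was 2.21 CPM (1.5 to 3.13) against 0.311 CPM (0.0376 to 1.12). With library totals the median log2 difference of all tested miRNAs in this comparison was 0.18, beside -0.07 with TMM factors. These 2 strands are the readout that tells the clusters on chromosomes 6 and 1 apart for miR-29b, and the clusters were not tested against each other at these counts.

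**Figure D4:**
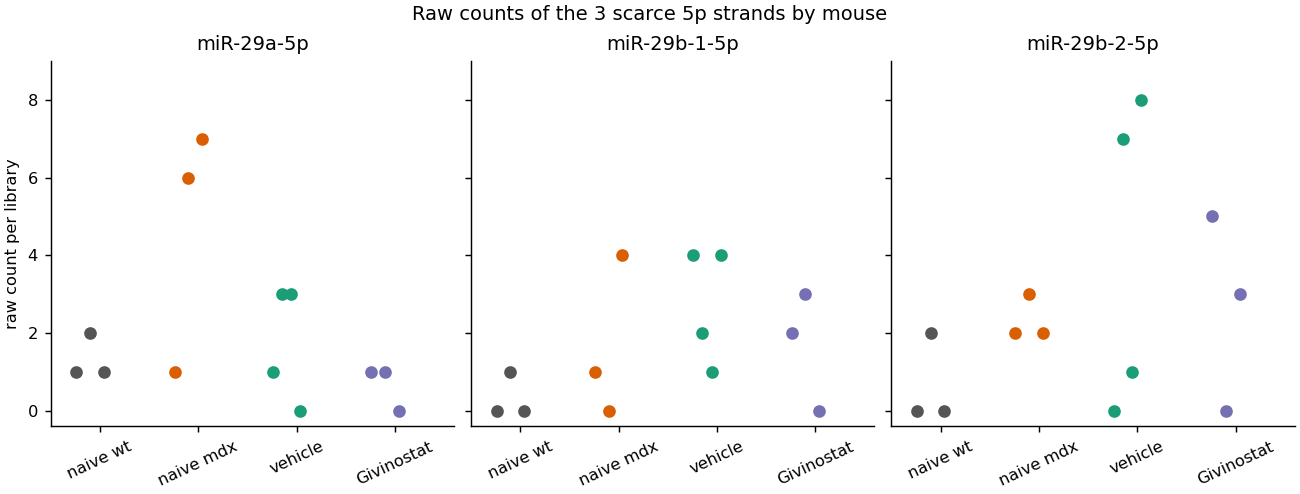
Raw read counts of the 3 scarce 5p strands in each mouse, as points by group on a shared linear axis. No library reaches 10 counts for any of them, and groups overlap in each panel.

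The members varied together to different degrees. Over 13 libraries the log2 levels of miR-29a-3p and miR-29c-3p had a Pearson r of 0.916 (Spearman 0.764), those of miR-29b-3p and miR-29c-3p 0.861 (0.896), and those of miR-29a-3p and miR-29b-3p 0.754 (0.709). The 2 strands of the Mir29c hairpin had 0.790 (0.467). These are descriptions over points that share the difference between wt and mdx mice as well as depth and scaling, and they are given with no test.

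Outside the family, the miRNAs most like miR-29a-3p over the 13 libraries, by Pearson r of log2 level, were miR-24-3p (0.986), miR-361-5p (0.962) and miR-24-2-5p (0.951). In naive mdx against naive wt they differed by 1.30, 1.59 and 1.75 on the log2 scale, beside 1.42 for miR-29a-3p. Those most like miR-29c-3p were miR-208b-3p (0.905), let-7f-1-3p (0.903) and miR-30e-5p (0.902). In naive mdx against naive wt these 3 differed by 2.99 (SE 0.57, adjusted p = 0.000475, edgeR), 1.92 and 0.83 on the log2 scale, respectively. miR-208b-3p, made from an intron of a slow myosin heavy chain gene, was scarce, with a mean of 7.48 CPM. For miR-29b-3p the closest were miR-30e-5p (0.788), miR-1839-5p (0.755) and miR-30b-5p (0.755), at lower r than for the other 3p strands.

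From a list of 25 other miRNAs linked to fibrosis 21 were tested, of which 3 were higher, 10 lower and 8 not called in naive mdx against naive wt. Over all 368 miRNAs tested, 26.9% were called higher and 16.6% lower. The list holds the 5 fibroblast miRNAs described below, the muscle miRNA miR-133a-3p and the liver miRNA miR-192-5p. The list's median log2 difference was -0.85, that of all tested miRNAs 0.04. The 3 higher ones were miR-133a-3p (4.97), miR-24-3p (1.30) and miR-30c-5p (1.02), of which miR-133a-3p is a muscle miRNA that represses connective tissue growth factor. Among the lower ones, miR-26a-5p fell by 0.94 (SE 0.29, adjusted p = 0.0162, edgeR). miR-21a-5p, which is known to promote fibrosis and is high in activated fibroblasts, had a difference of -0.56 (SE 0.30, adjusted p = 0.132, edgeR). In all mdx groups against naive wt, miR-21a-5p was called lower (-0.62, adjusted p = 0.0320, edgeR). In that comparison miR-26a-5p was not called (-0.46, adjusted p = 0.0972, edgeR). In Givinostat against vehicle none of the 21 was called, with a median of 0.22 beside -0.02 for all tested miRNAs.

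Fibroblasts express the miRNAs of the miR-199a and miR-214 locus and miR-21a-5p, and no such marker was called higher. Of 5 fibroblast miRNAs 4 were tested, 3 of which were lower in naive mdx (miR-199a-5p by a log2 difference of -1.84, miR-214-3p by -1.11 and miR-199b-5p by -1.56). The list's summed level was 23873 to 29218 CPM in naive wt and 9888 to 21219 CPM in mdx mice. That sum was mostly miR-21a-5p, which was not called in naive mdx. Its naive wt mean was 24797 CPM, beside 896 for miR-199a-5p, 284 for miR-214-3p and 21.9 for miR-199b-5p. Of 8 muscle markers 7 were higher in naive mdx than in naive wt (median 4.62). Their summed level was 9631 to 17559 CPM in naive wt and 207103 to 534367 CPM in mdx mice. Among the mdx groups the mean shares of muscle markers and family went opposite ways, which was not tested. Both are shares of the same library totals, so a larger muscle share by itself lowers the share of all other miRNAs. No family member was called in vehicle against naive mdx or in Givinostat against vehicle. In naive mdx, vehicle and Givinostat mice the muscle list took 32.7%, 39.3% and 43.4% of counts, and the family 1.01%, 0.668% and 0.646%. Liver markers were lower in naive mdx than in naive wt, 4 of 4 (median -2.70). Among 7 red blood cell miRNAs 3 were higher, all of them miR-486 strands (miR-486a-5p at 2.21), and 3 others were lower (miR-451a at -1.17). Of 4 myeloid markers 1 was lower, of 2 endothelial markers 1 was lower, and none of 4 lymphocyte markers was called. The part of any of these cell types in the level of the family was not tested.

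The log2 ratio of miR-451a over miR-23a-3p, taken as a measure of red blood cell miRNA, also parted the genotypes. It was -0.11 to 0.11 in naive wt and -2.68 to -0.69 in mdx libraries. Its mean was 0.01 in naive wt and -2.20 in naive mdx, a wider gap than the -1.17 of miR-451a alone. The ratio thus also carries a shift of miR-23a-3p, and the part of red blood cells in it was not tested. With this ratio as a covariate in edgeR no member was called, at log2 differences of 0.85 (miR-29a-3p), 0.17 (miR-29b-3p), 1.89 (miR-29c-3p) and 0.72 (miR-29c-5p) for naive mdx against naive wt and adjusted p from 0.606 to 0.992. Over all 368 miRNAs tested, 1 was called higher and 0 lower in this fit, beside 99 and 61 without the covariate. The loss of calls was thus not particular to the family. The ratio and the genotype cannot be told apart in these libraries.

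The sizes depended on the scaling, while miR-29a-3p, miR-29c-3p and miR-29c-5p were called under each scaling tried. For naive mdx against naive wt, miR-29a-3p ranged from a log2 difference of 1.20 with upper-quartile factors to 1.70 with library totals, and miR-29c-3p from 1.54 to 2.06. The median of all tested miRNAs moved with them, from -0.20 to 0.43, and calls over all miRNAs changed from 99 higher and 61 lower (TMM) to 82 and 96 (upper quartile) or 118 and 23 (library totals). Relative to that median, miR-29a-3p lay 1.38 higher with TMM, 1.4 with upper-quartile factors and 1.27 with library totals. Naive wt mouse 89 had the lowest miR-122-5p share of its group, and without it the log2 differences of miR-29a-3p and miR-29c-3p were 1.51 and 1.81, with adjusted p of 0.00151 and 0.00140 in edgeR.

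**Figure D5:**
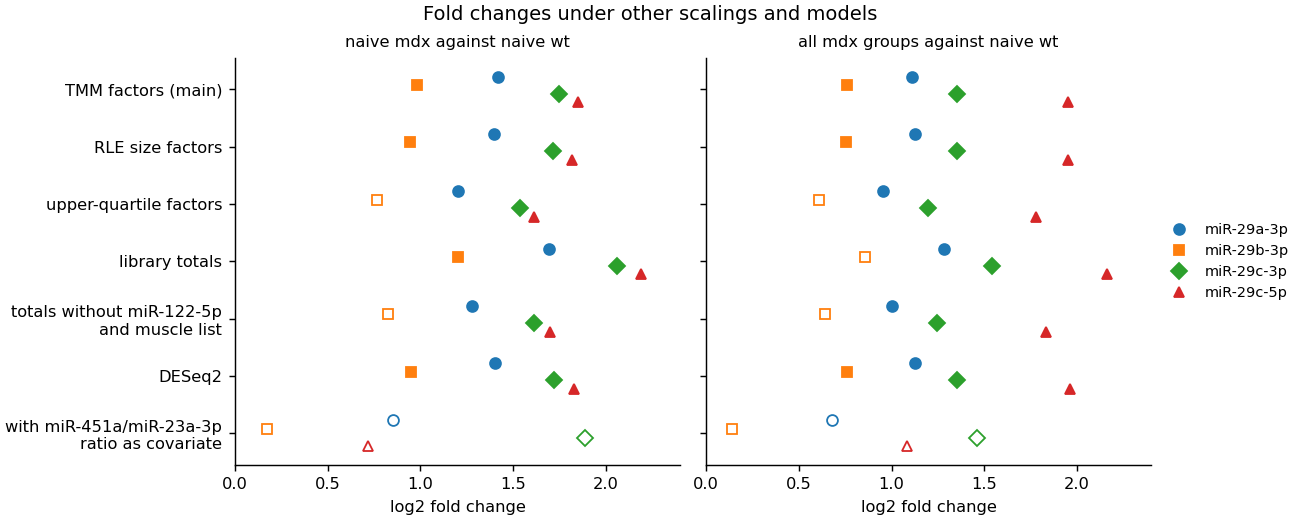
Log2 fold change of the 4 tested members against naive wt under 7 scalings or models, filled where the adjusted p was under 0.05 and open where it was not. miR-29a-3p, miR-29c-3p and miR-29c-5p are open only with the covariate, whereas miR-29b-3p is also open under upper-quartile factors and totals without miR-122-5p and the muscle list in both comparisons, and under library totals for all mdx groups.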

How the data were processed

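Plasma small RNA of 13 mice was measured, 1 library per mouse. Per the labels and the study's methods, RNA was extracted with a plasma kit, ligated to adapters and amplified without molecular identifiers, and reads were trimmed and mapped to GRCm38, those up to 25 bases without mismatch. Bowtie 1.0.0, bcl2fastq 1.37.0 and cutadapt 1.4.2 are named in the submitters' processing notes. The authors deposited raw counts per mature miRNA, each the sum of its isomiRs, and a normalized table in log2, which equals log2 of the raw count plus a constant for each library and lists no value for the lowest counts. The raw counts were tested. The log2 table served only as an alternative, and no column of it gave fold changes or p-values.

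Groups were taken from the sample titles. The 15 pairs of libraries within groups all differed beyond sampling noise (lowest chi-square per degree of freedom 104.5). Counts were filtered (filterByExpr, minimum count 10), scaled by TMM and fitted with 1 mean per group over all 13 libraries by edgeR 4.0.16 (quasi-likelihood, legacy = FALSE, R 4.3.3). This procedure was checked on simulated counts, whose changes were drawn at random and did not model the shifts of miR-122-5p and the muscle miRNAs. P-values were adjusted by Benjamini-Hochberg over the 368 miRNAs tested, and a member was called at 0.05. The study used DESeq2, here an alternative (1.42.0) beside limma 3.58.1 (pseudocounts 1 and 5). Ratios (pseudocount 0.5) and summed levels were compared by two-sided exact permutation over mice (scipy 1.17.1). Arm ratios were tested only where both strands had a median count of at least 10. Library totals of 1167161 to 2899315 counts put 1 count at under 1 CPM. A level of 0 is given with the limit that 3 counts set, and intervals on counts cover counting error only.

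The members and the marker lists were chosen with earlier results of these data known. The text names the 7 members, up to 4 of the most abundant tested miRNAs of each list, the 3 miRNAs most correlated with each tested 3p strand, and miR-122-5p, miR-206-3p and miR-451a. miR-30c-5p was named after its values were seen, miR-23a-3p as part of the covariate and miR-6338 for its seed. Alternatives were other scalings, filters, tests and sample sets, the miR-451a to miR-23a-3p ratio as a covariate, and each library left out in turn. Sequences and coordinates are from RefSeq on GRCm38.p6 and were compared with the GENCODE annotation of the same build.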

Additional observations from a re-analysis of the deposited data

Results flagged for a closer look

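In 18 sets of values (9 measures, each in the vehicle mice and in all 10 mdx mice) the highest and the lowest mouse were checked by Dixon's criterion, and 2 stood apart. Chance alone flags about 1 in 20 such sets. miR-29c-5p was 37.0 CPM in vehicle mouse 40, beside 23.7 to 25.4 CPM in the other 3 vehicle mice. The log2 ratio of miR-29c-3p to miR-29a-3p was -6.25 in vehicle mouse 43, the lowest of the 10 mdx mice, from a raw count of 136 for miR-29c-3p. Both mice entered every result, and leaving out either changed no call.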

How the results depend on the processing

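miR-29a-3p, miR-29c-3p and miR-29c-5p stayed higher in both comparisons with naive wt and past the threshold under each alternative scaling, filter, test and left-out library, with log2 differences of 1.20 to 1.77 for miR-29a-3p in naive mdx against naive wt. The exception was the miR-451a to miR-23a-3p ratio as a covariate. With it, 0 members were called in naive mdx against naive wt and 0 in all mdx groups against naive wt. Over all 368 miRNAs tested, 1 was called higher and 0 lower in the former, and 10 and 0 in the latter. The covariate separates the genotypes without overlap, so that it and the genotype cannot be told apart. miR-29b-3p lost its call in 8 of 19 alternatives for naive mdx and 12 of 25 for all mdx groups, among them upper-quartile factors (log2 0.76 and 0.61), totals without miR-122-5p and the muscle list (0.83 and 0.64), library totals for all mdx groups (0.86, adjusted p = 0.0570) and a fit of only naive mdx and naive wt (0.97, adjusted p = 0.101, edgeR). No called difference changed sign. The summed level of all mdx mice exceeded that of naive wt by 3449.7 to 4132.6 CPM with 1 mouse left out, and the miR-29c 5p to 3p ratio by 0.53 to 0.74 on the log2 scale. No alternative gave a call for a member in Givinostat against vehicle or in vehicle against naive mdx. For all mdx groups against naive wt, a fit of only the groups compared is the same fit. Without the filter, miR-29a-5p, miR-29b-1-5p and miR-29b-2-5p had log2 differences of 1.84, 2.03 and 1.74 in naive mdx against naive wt, with adjusted p of 0.163 to 0.399 in edgeR. No paired analysis was possible because the groups share no animal numbers. Depth limits the 5p strands, 3 of which had under 10 counts per library.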
